A study of Mus musculus with 8 samples.

Results

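The comparison sets the brain of male mice that drank lead acetate at 1000 mg/L against the brain of male mice that drank it at 100 mg/L, both for 3 weeks. It rests on 2 of the 8 arrays of the series, 1 array for each dose, chosen by their tissue and dose and by no measured value. The other arrays hold brain of control mice given distilled water, kidney at the 3 doses, and liver of control and high-dose mice. RNA came from small pieces of tissue kept in a stabilizing solution, and the labels do not say which part of the brain a piece came from, how old the mice were, their strain, or how many animals an array stands for. All 8 arrays lay on 1 slide read in 1 scan. With 1 array a dose no difference has a replicate check, so no test was made and no value below has a spread between animals.

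Lead is a divalent metal that can take the place of calcium and zinc in proteins, and the brain is one of its main targets. It is known to block the NMDA glutamate receptor and to inhibit delta-aminolevulinic acid dehydratase, an enzyme of heme synthesis. Brain tissue is a patchwork of regions with their own genes: the striatum, which takes the bulk of the forebrain's dopamine input, the hippocampus, the cortex, and the choroid plexus, the epithelium in the ventricles that makes cerebrospinal fluid. In a bulk sample, fewer cells of a type and less RNA per cell cannot be told apart.

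Levels are log2 signals of the Agilent probes with the 75th percentile of their array set to 0. A gene counted as measured when neither array had its probe saturated or close to background, by the scanner's flags, which held for 23172 of 37325 gene names (62.1%) and 35504 of 56605 probes. A gene passed the size rule when the high-dose minus low-dose difference was at least 1 in size, a 2-fold step, and over 3 times the scanner's own error for that pair of spots, which had a median of 0.21. The rule is one of size and not a test. The 2 arrays were alike in brightness, with a 75th percentile signal of 918.5 on the high-dose array and 947 on the low-dose array. Spots well above background made up 67.1% of the high-dose array and 65.8% of the low-dose array. Both carried the markers of brain: the median level of 12 astrocyte genes was 2.84 on the high-dose array and 2.75 on the low-dose array, and it lay at -1.56 or lower on the kidney and liver arrays.

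The 2 brain arrays were close to each other over most genes. Differences had a median of 0.002 and a standard deviation across genes of 0.27, and 94.6% of measured genes lay within 0.5 of no difference. In all 244 genes passed the size rule (1.05%), of which 73 were higher (0.315%) and 171 lower (0.738%) at the high dose. The genes that were higher were mostly dim, with a median level of -2.42 on the high-dose array and -3.96 on the low-dose array, and 0 of them lay above the 75th percentile on both arrays. Among the lower genes 28 lay above it on both, where 41.8% of all measured genes did. Over probes, 361 of 35504 passed (1.02%), 112 higher (0.315%) and 249 lower (0.701%). These counts depended on how dim spots were handled: with normexp background correction 20 genes were higher and 69 lower. Steps of 4-fold or more were found for 9 higher and 23 lower genes. Striatal genes such as Rxrg and Rgs9 were among the 15 largest downward differences, and the 3 largest upward ones were of sperm formation genes.

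**Figure D1:**
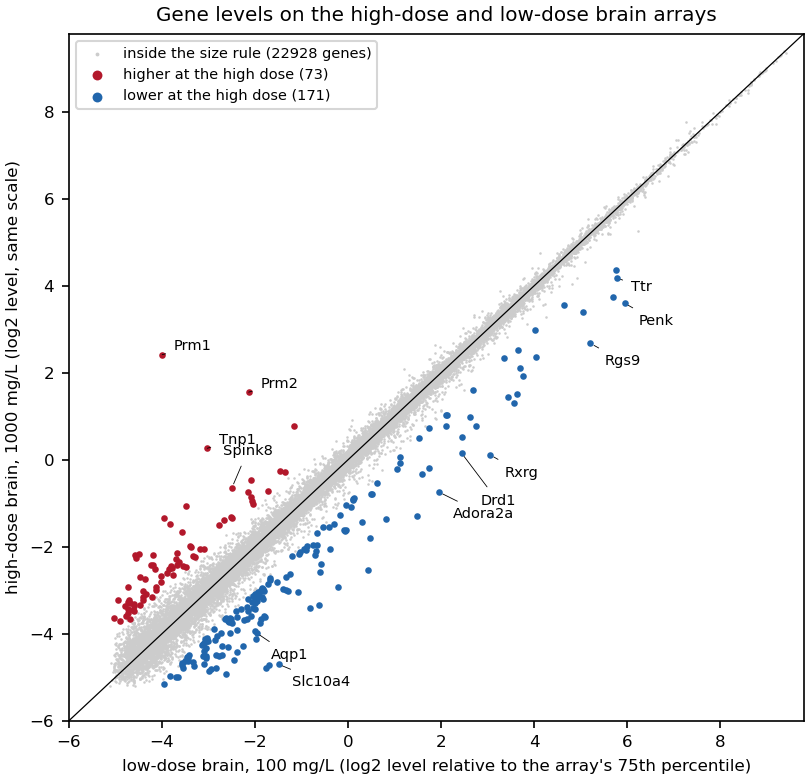
Level of each of the 23172 measured genes on the low-dose brain array (x axis) and on the high-dose brain array (y axis), as log2 signal relative to the 75th percentile of the array. The black line marks equal levels. Prm1, Prm2 and Tnp1 stand far above the line, and striatal genes such as Rxrg, Rgs9 and Penk stand below it at medium to high levels.

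The striatum's output neurons read dopamine through the D1 receptor in cells of the direct pathway and the D2 receptor in cells of the indirect pathway, and both turn it into cyclic AMP signals. Of 26 measured genes in 3 striatal lists, 18 were lower at the high dose by the size rule and 0 were higher. Their median difference was -1.75, beside a median of 0.002 for all measured genes. The lists here and below were chosen with earlier results of these data known. Their counts and medians therefore describe the lists and are no independent support. In units of the array's 75th percentile, their signals summed to 122 on the high-dose array and 386 on the low-dose array, a ratio of 0.317. The count of lower striatal genes was 17 to 19 under each of the 12 alternative settings tried, and the count of higher ones 0. Probes of 5 leading genes are shown to identify what was measured. The lines give the first 30 bases of the 60-base probe from its 5′ end and where those bases lie in the mm9 build, as the array annotation places them.
Rgs9, chr11:109086699-109086728, minus strand: gtgggccagaagatatcccttgctgcctta
Penk, chr4:4060765-4060794, minus strand: ggtctcttatggctatgttgttatcaatag
Adora2a, chr10:74797461-74797490, plus strand: gcttgtttgtttgtttgtgttttattttcc
Drd1, chr13:54146615-54146644, minus strand: gtgttacgtactttgaatgttttctcagct
Rxrg, chr1:169569624-169569653, plus strand: aggtctttccggcagttcttgggaagagtg

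Among the genes that both kinds of output neuron use, 12 of 16 were lower, 0 were higher, and all 16 differences were below 0. Rgs9, which shortens G protein signals, had a level of 2.68 on the high-dose array and 5.21 on the low-dose array, a 5.80-fold difference. Its 4 other measured probes differed by -2.56 to -1.60, so all 5 probes had the same direction and passed a 2-fold step. Rxrg, the retinoid X receptor gamma, stood at 0.12 on the high-dose array and 3.06 on the low-dose array (-2.94). Ppp1r1b, which encodes the dopamine-regulated phosphatase inhibitor DARPP-32, was at 3.74 at the high dose and 5.69 at the low dose (-1.95), and its other probe differed by -2.04. All 3 genes lay above the 75th percentile on both arrays.

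Other shared genes that passed act in second messenger, G protein, retinoid and sodium channel signalling. Syndig1l, a synaptic membrane protein gene, differed by -2.72 and its other probe by -2.83. The cyclic nucleotide phosphodiesterases Pde10a and Pde1b differed by -2.12 and -1.40, and the adenylyl cyclase Adcy5 by -1.59. Differences of Gng7, a G protein gamma subunit, and Rasd2, a small GTPase of striatal neurons, were -1.67 and -1.65. The retinoic acid receptor gene Rarb differed by -1.91 and its other probes by -0.84 and -1.93, and the sodium channel subunit Scn4b by -1.83. The 4 genes that did not pass were Gnal, the striatal G protein alpha subunit, at -0.98, the transcription factors Bcl11b at -0.87 and Foxp1 at -0.57, and the phosphatase gene Ptpn5 at -0.08. Bcl11b and Foxp1 are also cortical genes.

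Both output pathways were represented among the lower genes. In the indirect pathway 4 of 5 measured genes passed. Penk, the precursor of the enkephalins, was at 3.60 at the high dose and 5.95 at the low dose (-2.35), and its second probe differed by -2.67. The adenosine receptor Adora2a was at -0.74 at the high dose and 1.96 at the low dose (-2.70), the dopamine receptor Drd2 differed by -1.97 and the receptor Gpr6 by -1.53. Sp9, a transcription factor of these cells, differed by -0.28, and the receptor gene Gpr52 was well above background on the low-dose array alone, at least 2.43-fold lower at the high dose. A bound of this kind sets the bright array against the higher of the dim spot itself and the dimmest signal that was still well above background.

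In the direct pathway 2 of 5 measured genes passed. Drd1, the D1 dopamine receptor, was at 0.15 at the high dose and 2.45 at the low dose (-2.29), and its other probe differed by -2.14. Tac1, the precursor of substance P, differed by -1.98. Pdyn, the precursor of the dynorphins, differed by -0.57, Chrm4, a muscarinic receptor, by 0.01 and Eya1 by 0.32. Isl1, a transcription factor of direct pathway and cholinergic neurons, was above background on the low-dose array alone and was lower at the high dose by at least 4.40-fold. Over the 9 striatal genes that passed and have further measured probes, 13 of 14 further probes also differed by at least 1 in the same direction.

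The control brain shows where each of the 2 doses stood. Over the 16 shared striatal genes the median level was 2.32 in the control brain, 3.67 in the low-dose brain and 2.02 in the high-dose brain. For all 18 striatal genes that passed, the control level lay between the doses and nearer to the high dose. Penk, for example, was at 4.42, 5.95 and 3.60 in control, low-dose and high-dose brain, and Drd1 at 0.78, 2.45 and 0.15. The median distance from control of these 18 genes was -0.48 at the high dose and 1.52 at the low dose, so the low-dose array was the one that stood apart. Whether the pieces held different amounts of striatum was not tested, since the labels do not say where they were taken.

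**Figure D2:**
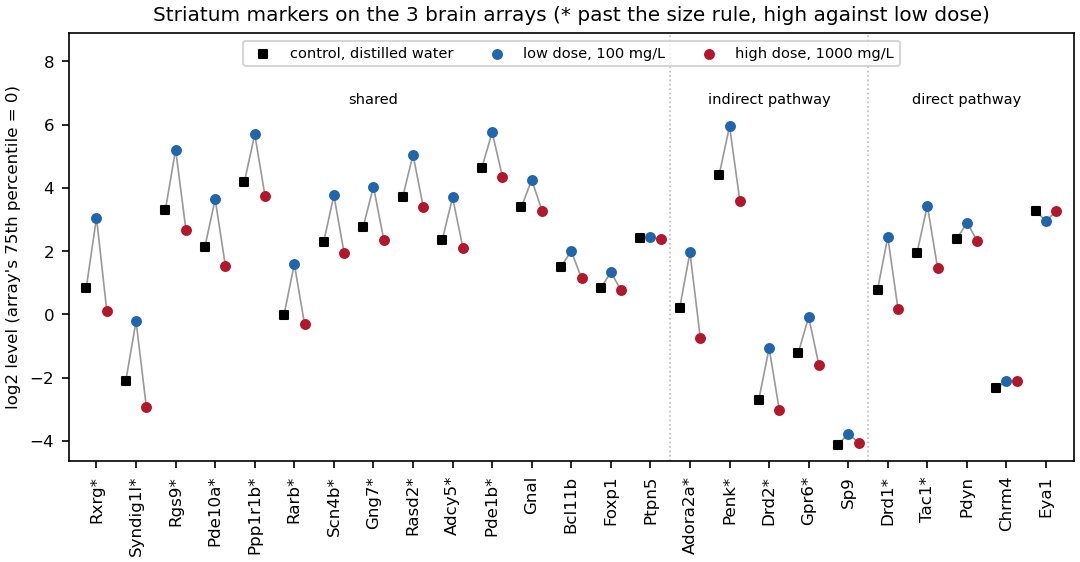
Level of measured striatal genes in control, low-dose and high-dose brain, left to right within each gene, as log2 signal relative to the 75th percentile of the array. Each point is 1 array. The low-dose point stands highest for every gene with a star, and the high-dose point lowest.

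Genes of dopamine signalling, retinoid signalling and neuropeptides overlapped this set. The dopamine list had 8 lower and 0 higher of 15 measured genes, and all 8 were also in the striatal lists. Drd3, the D3 receptor, was above background on the low-dose array alone and at least 4.22-fold lower at the high dose. The monoamine oxidases, which break dopamine down, did not pass, with differences of -0.02 for Maoa and -0.32 for Maob. Drd5, the D5 receptor, differed by 0.75 and Drd4 by -0.63. Of 14 measured retinoid genes 3 were lower, namely Rxrg, Rarb and Crabp1, a retinoic acid binding protein (-1.82), while Rxra and Rxrb differed by 0.02 and -0.10. In the neuropeptide list 3 of 15 were lower, Penk, Tac1 and the kappa opioid receptor Oprk1 (-1.11), and Sst, Npy and Cck differed by -0.03, -0.22 and 0.08.

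Genes of cholinergic neurons, which include the interneurons of the striatum, had 2 lower and 0 higher of 6 measured. Slc10a4, a carrier on cholinergic and aminergic synaptic vesicles, had the largest downward difference among measured gene symbols. It was at -4.70 at the high dose and -1.49 at the low dose, 9.24-fold, a difference of -3.21 that was -1.81 with normexp background correction. Slc18a3, the vesicular acetylcholine transporter, differed by -1.29 (-0.87 with normexp). Chat, the enzyme that makes acetylcholine, differed by -0.57, and Lhx8, a transcription factor of these neurons, by 0.33. The reported probe of Slc5a7, the choline carrier, was above background on the low-dose array alone.

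The choroid plexus takes thyroid hormone and folate across the blood barrier and moves water and ions into the ventricles. Of 23 measured genes of this tissue 11 were lower at the high dose and 0 were higher, and 20 differences lay below 0. The median difference was -0.99, and -0.65 with normexp background correction, under which 6 of the 23 genes were lower. Summed signals were 42.6 on the high-dose array and 88.7 on the low-dose array, a ratio of 0.481. The first 30 bases of 3 of its probes are shown because they stand for water, ion and folate transport (mm9 build).
Aqp1, chr6:55298480-55298509, plus strand: ctgtgtatgtttctttgcaattgaatttca
Kcne2, chr16:92298155-92298184, plus strand: gttccaagccattctagacccattgcactg
Folr1, chr7:109006876-109006905, minus strand: gtggtggggctctgacagcctctttaataa

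Transport genes were among the lower ones. The water channel Aqp1 was at -3.98 on the high-dose array and -1.96 on the low-dose array (-2.02). Kcne2, a potassium channel subunit, was at -3.0 at the high dose and -1.29 at the low dose (-1.71), and the folate receptor Folr1 at -0.79 at the high dose and 0.51 at the low dose (-1.30). All 3 had less signal at the high dose. The bicarbonate carrier Slc4a5 and the chloride channel family gene Clic6 both differed by -1.58. Ttr, the carrier of thyroxine and retinol and the brightest of these genes, was at 4.19 at the high dose and 5.78 at the low dose (-1.59), and its second probe differed by -1.68. All 6 of these transport genes were lower at the high dose at every probe named here.

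Secreted and receptor genes of the same epithelium also passed. Sostdc1, a secreted inhibitor of BMP and Wnt signals, differed by -1.68, coagulation factor F5 by -1.33, the ageing-related gene Kl by -1.11 and Wfdc2 by -1.04. Prlr, the prolactin receptor, differed by -1.43 at its reported probe and by -0.06 at its other probe, so the 2 probes of this gene disagree. Of the 12 genes that did not pass, Steap1 (-0.99), Lbp (-0.71), Kcnj13 (-0.69), Trpv4 (-0.65) and Enpp2 (-0.50) were nearest to the rule. Otx2, the transcription factor that keeps this epithelium's identity, differed by -0.17, and Slc13a4 by 0.28. Cldn2, a tight junction gene, was above background on the low-dose array alone.

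Here the high-dose array was the one that stood apart. The control level was nearer to the low dose in all 11 genes that passed, and above both doses in 10 of them. Ttr was at 6.09, 5.78 and 4.19 in control, low-dose and high-dose brain, and Kcne2 at -0.92, -1.29 and -3.0. The median distance from control of the 11 genes was -1.90 at the high dose and -0.32 at the low dose. How much choroid plexus each piece held is not given in the labels, and its part in these differences was not tested. Genes of the ependyma, the ciliated lining of the same ventricles, did not go down with them: all 8 measured genes differed by more than 0, with a median of 0.30, and Meig1 passed as higher (1.22). Meig1 is also needed for sperm formation.

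**Figure D3:**
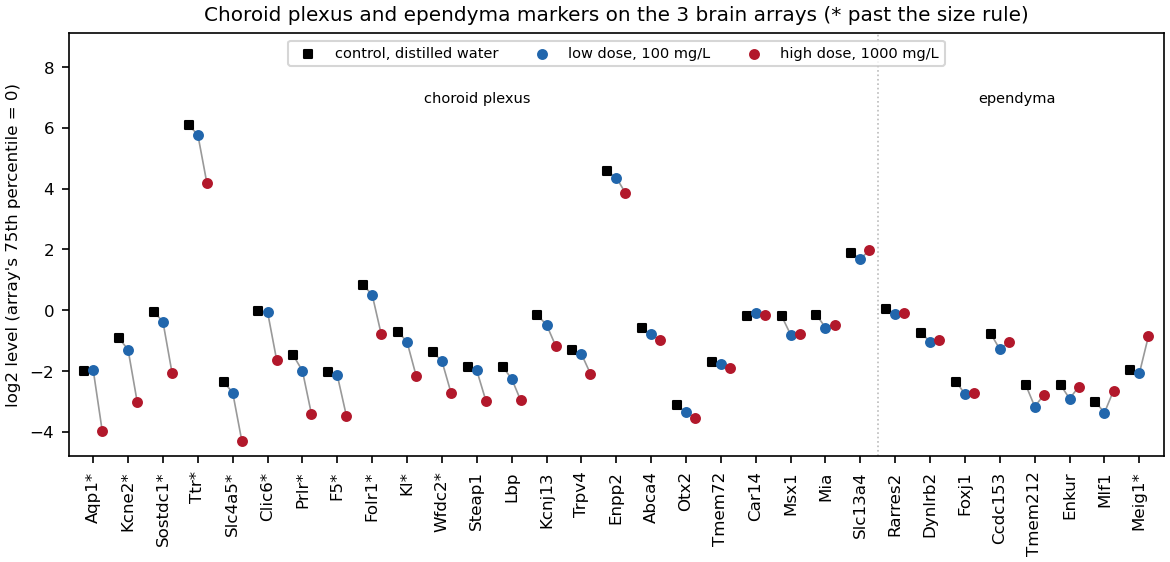
Level of 23 choroid plexus and 8 ependyma genes in control, low-dose and high-dose brain, left to right within each gene, as log2 signal relative to the 75th percentile of the array. Each point is 1 array. The choroid plexus genes with a star drop at the high dose, and the control and low-dose points lie close together.

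Late sperm cells pack their DNA by replacing histones first with transition proteins and then with protamines, and transcripts for these are among the most abundant in round and elongating spermatids. The 3 largest upward differences in brain were of such genes. Of 23 genes in the spermatid list 10 were measured on both arrays, and 6 of these were higher at the high dose and 0 lower. With a stricter filter on dim probes 5 were left, of which 2 were higher. Genes that were above background only through the high-dose array are left out of that count and given as bounds. The starts of 2 probes are shown for the leading protamine and transition protein (first 30 bases, mm9 build).
Prm1, chr16:10796480-10796509, minus strand: ccacatcttgaaaaatgccaccgtccgatg
Tnp1, chr1:73061864-73061893, minus strand: gcaattaccgatcccacttgtgatgcggca

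Prm1, protamine 1, had a processed signal of 4913 on the high-dose array and 59.5 on the low-dose array. Its level was 2.42 at the high dose and -3.99 at the low dose. The difference of 6.41, or 85.1-fold, was the largest between the 2 arrays. Prm2, protamine 2, was at 1.56 at the high dose and -2.13 at the low dose (3.69), and the transition protein gene Tnp1 at 0.27 at the high dose and -3.02 at the low dose (3.29). These 3 DNA-packing genes were bright on the high-dose array and dim on the low-dose array. The tubulin gene Tuba3b differed by 2.63, Tcp11, a gene of sperm function, by 2.34 and Tcp10b by 1.29, with 0.57 and 0.43 at the other probes of Tcp10b. All 6 genes were well above background on both arrays. With normexp background correction and quantile normalization Prm1, Prm2, Tnp1, Tuba3b and Tcp11 differed by 5.22, 3.30, 2.54, 1.67 and 1.49, smaller than above and still past a 2-fold step. Under that setting 5 of the 10 measured genes passed, and Tcp10b no longer did. Prm3, Tuba3a, Acr and Hspa1l differed by -0.02, 0.04, -0.32 and -0.34 and did not pass.

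A further 8 spermatid genes were above background on the high-dose array and on no probe of the low-dose array. By the same rule, 1027 of all 37325 gene names were above background on the high-dose array alone and 497 on the low-dose array alone. Of these, 162 and 128 had a bound of at least 2-fold, and 28 and 27 a bound of at least 4-fold. Ldhc, the sperm form of lactate dehydrogenase, was at least 12.8-fold higher at the high dose. Smcp, a protein of the sperm mitochondrial capsule, was at least 9.98-fold higher and Tnp2, the second transition protein, at least 5.87-fold. Akap4, of the sperm tail sheath, and Gapdhs, the sperm form of a glycolytic enzyme, were at least 3.87-fold and 3.7-fold higher. The bounds of Tssk6, Spem1 and Oaz3 were 2.98, 2.51 and 1.51. The last 5 of the list, Odf1, Pgk2, Crisp2, Acrv1 and Spaca1, were not well above background on either array.

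No measured gene passed in the lists of earlier germ cells and of the testis's other cells. In the spermatocyte list 0 of 2 measured genes passed, with Dazl at -0.37 and Ddx4 at 0.36, and Sycp1, Hormad1 and Piwil1 were not well above background on either array. Sycp3, of the axis of meiotic chromosomes, was above background on the high-dose array alone, at least 1.41-fold higher at the high dose. In the list of testis somatic cells 0 of 4 passed, with the steroid genes Star at 0.24, Cyp17a1 at 0.12 and Cyp11a1 at -0.80. Amh was above background on the low-dose array alone. Both lists are small, so these counts rest on few genes.

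High-dose kidney had high levels of most of these genes too. Prm1 was at -3.12, -3.99 and 2.42 in control, low-dose and high-dose brain, at -0.09, -1.46 and 3.33 in control, low-dose and high-dose kidney, and at -2.14 and -1.79 in control and high-dose liver. Tnp1 was at -3.61, -3.02 and 0.27 on the 3 brain arrays and at -1.60, -3.17 and 1.49 on the 3 kidney arrays. On the 2 liver arrays Tnp1 was at -2.76 and -2.78. Ldhc, below background in control and low-dose brain and in low-dose kidney, was at -1.43 in high-dose brain, -4.04 in control kidney and -0.49 in high-dose kidney. Smcp was bright on all 3 kidney arrays, at 1.58, 1.22 and 2.10 in control, low-dose and high-dose kidney. In brain the control level was nearer to the low dose for all 6 spermatid genes that passed. The labels do not say whether the high-dose brain and kidney came from the same mice, and the order in which tissues were taken is not given; whether RNA of testis was carried into these samples was not tested.

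**Figure D4:**
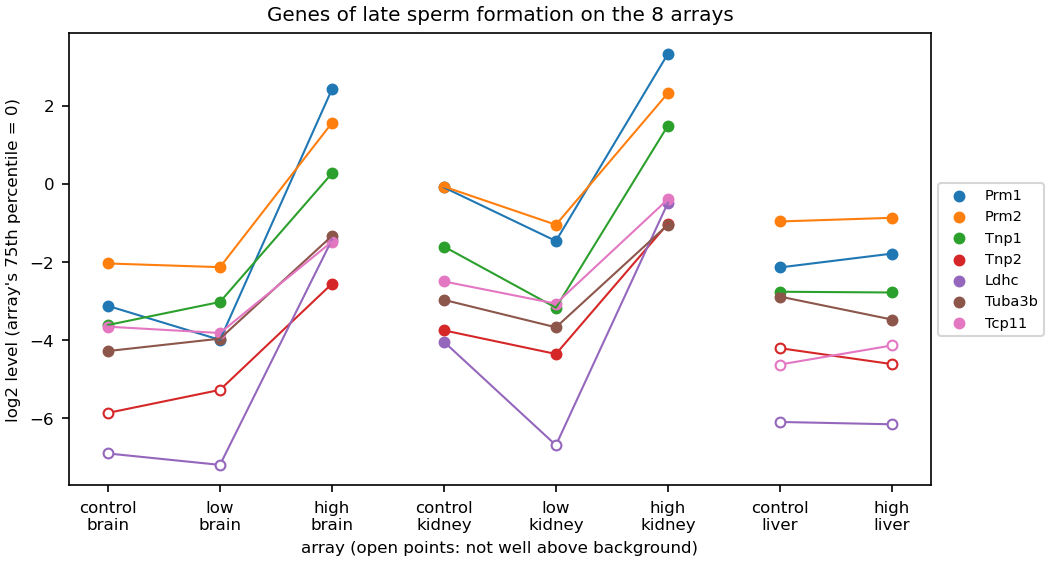
Level of 7 genes of late sperm formation on each of the 8 arrays, as log2 signal relative to the 75th percentile of the array, with doses in rising order within a tissue. Each point is 1 array, and open points were not well above background. The high-dose brain and high-dose kidney arrays are the brightest for every gene drawn, and the high-dose liver array lies below both.

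The high minus low difference in kidney puts numbers on this. There 226 of 20896 measured genes passed the size rule (1.08%), 176 higher (0.842%) and 50 lower (0.239%). Of the 244 brain genes 143 were measured on both kidney arrays, 19 passed in both tissues and 15 of those had the same direction. Prm1 differed by 4.79 in kidney, Tnp1 by 4.66, Prm2 by 3.37, Tcp11 by 2.67 and Tuba3b by 2.62. The striatal genes differed less in kidney: Rxrg, Rgs9, Adora2a and Penk differed by 0.09, -0.18, -0.17 and -0.26 in kidney. No array is shared between the brain and kidney comparisons.

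Many spermatid genes are switched on through an element bound by the activator CREM, an 8-base palindrome close to their start. The 250 bases before the start of Prm1 and Tnp1 are shown from RefSeq (GRCm38.p6), on the strand of the gene, with each match to TGANNTCA in capitals, where N is any base.
Prm1, chr16:10796824-10797073, minus strand: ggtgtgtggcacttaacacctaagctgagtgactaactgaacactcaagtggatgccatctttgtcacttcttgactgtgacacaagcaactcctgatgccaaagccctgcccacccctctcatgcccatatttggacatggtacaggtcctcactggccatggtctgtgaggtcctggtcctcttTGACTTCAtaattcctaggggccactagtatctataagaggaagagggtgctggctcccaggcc
Tnp1, chr1:73015900-73016149, minus strand: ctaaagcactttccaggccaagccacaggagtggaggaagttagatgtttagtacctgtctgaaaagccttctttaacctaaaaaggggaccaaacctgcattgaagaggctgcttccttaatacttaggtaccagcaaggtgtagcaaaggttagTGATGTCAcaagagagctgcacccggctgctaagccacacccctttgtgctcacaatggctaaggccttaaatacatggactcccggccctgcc
In Prm1 the match TGACTTCA spans bases 64 to 57 before the start, and in Tnp1 the match TGATGTCA spans bases 94 to 87. The pattern was searched as its own reverse complement, so it covers both strands. It occurs in at least 1 window of 13.5% of the 27025 genes in the table and in 7 of the 20 spermatid genes there, Prm1, Prm3, Tnp1, Akap4, Pgk2, Gapdhs and Hspa1l. Of these, Prm3 and Hspa1l were measured in brain and did not pass, and Pgk2 was not well above background on either array. Of the 6 spermatid genes that passed, Prm2, Tuba3b, Tcp11 and Tcp10b have no match. A match describes the letters alone.

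Outside the spermatid list the largest upward differences were of genes with mixed roles, some of them also high in high-dose kidney. Dntt, the enzyme that adds bases to antigen receptor genes in lymphocytes, was at -1.06 at the high dose and -3.48 at the low dose (2.42). Slc9b1, a sodium and proton exchanger of sperm, differed by 2.29, and Rbakdn, a non-coding transcript, by 1.99 in brain and 2.90 in kidney. Lect2, a protein secreted by liver, differed by 1.90, the serotonin receptor Htr5b by 1.79, the nodal inhibitor Lefty1 by 1.76 and the homeobox gene Nkx2-3 by 1.72. The LIM gene Fhl4 differed by 1.81 in brain, and in kidney it was well above background on the high-dose array alone (-1.71). Apart from Dntt and Lect2 these genes lay below -2 even on the high-dose brain array. With normexp background correction Htr5b and Nkx2-3 differed by 0.91 and 0.84 and no longer passed. Among gene symbols outside the spermatid list, the histone H2al1e, the protease inhibitor Spink2 and the fatty acid binding protein Fabp9 had the largest bounds. They were at least 5.97-fold, 5.63-fold and 4.97-fold higher at the high dose. The list leaves out some genes of sperm, such as Slc9b1, Atp1a4 and Meig1, so a place outside it does not set a gene apart from them. How many of the other higher genes are also of sperm was not counted.

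In the hippocampus the 2 genes that passed as higher mark different fields. Spink8, a marker of field CA1, was at -0.64 at the high dose and -2.49 at the low dose (1.85). Lct, a marker of the dentate gyrus in mouse brain, was at -0.45 at the high dose and -2.08 at the low dose (1.63), and its probe starts on mm9 as follows.
Lct, chr1:130181419-130181448, minus strand: ctcatttcagggtttgatggtagactcaag
Of 20 measured genes in 4 hippocampal lists, 2 were higher and 1 was lower, with a median difference of 0.20. Fibcd1 of CA1 and Dsp of the dentate gyrus differed by 0.88 and 0.81, and the dentate transcription factor Prox1 by 0.45. These were the next largest upward differences in the lists, and 7 of the 20 measured genes lay below 0. Necab2, which marks field CA2 and is also abundant in the striatum, was the lower one (-1.14), and Pcp4, with the same double expression, differed by -0.96. Summed signals of the 20 genes, Necab2 and Pcp4 included, were 97.0 on the high-dose array and 135.6 on the low-dose array, a ratio of 0.715. Spink8 and Lct were at 0.02 and 0.00 in control brain, above both doses and nearer to the high dose. Over all 20 measured genes the median distance from control was -0.14 at the high dose and -0.20 at the low dose. Across these lists, then, neither dose stood apart.

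Elsewhere in the brain at most 1 gene passed in each list. Over all measured genes 0.738% passed as lower, so even 1 gene of a short list is a larger share than that. Of 24 measured genes of cortex and pallial excitatory neurons 1 was lower, Foxp2 (-1.10), and their median difference was 0.09. The thalamus had 1 lower of 10 (Synpo2), the hypothalamus 1 of 10 (Trh, the thyrotropin-releasing hormone, -1.21), the olfactory bulb 1 of 6 (Cdhr1, -1.05) and the GABA neurons 1 of 16 (Dlx6, -1.17). In the lists of serotonin, noradrenaline and glycine neurons, hindbrain Hox genes, pituitary, pineal gland and neuroblasts 0 genes passed, with at most 6 measured genes each. Gbx2, a thalamic and forebrain transcription factor, was above background on the low-dose array alone and at least 4.93-fold lower at the high dose. In the lists of cerebellar granule cells, Purkinje cells and midbrain dopamine neurons 0 genes passed. Synpo2, an actin-binding protein, is a case where 2 probes disagree: the first line is of the probe that differed by -1.65, and the second, farther along the gene in the direction of transcription, of the probe that differed by -0.01 at a level near the floor (-4.10 at both doses).
Synpo2, reported probe, chr3:122814000-122814029, minus strand: cgatgtctagagactttgtgtaaagacttt
Synpo2, other measured probe, chr3:122779489-122779518, minus strand: ctctgtcctcaaaggctgtatgtgaaagat

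No marker of glia, vessels or blood in these lists passed. In the lists of astrocytes, oligodendrocytes, their precursors, microglia, endothelium, pericytes, meninges and red cells 0 genes were past the size rule. Beside the 1.05% of all measured genes that passed, 0 in lists of 5 to 14 measured genes does not set these lists apart. Smaller shifts ran one way in some of them: 12 of 14 oligodendrocyte genes were below 0 with a median of -0.21, and 12 of 13 measured genes of meninges and fibroblasts were above 0 with a median of 0.36, led by the carrier Slc47a1 (0.86). The oligodendrocyte median is about the size of the median array error (0.21). Shared signs were also found in other lists, with 10 of 12 housekeeping genes below 0 and 14 of 16 sterol synthesis genes above 0. The immediate early genes, which respond to neuronal firing and to handling, were above 0 in 15 of 17 with a median of 0.23 and at most 0.56, in Fosb and Klf4. No gene passed in the lists of neutrophils, interferon response, antigen presentation, sterol synthesis, circadian clock, GABA-A receptor subunits or housekeeping genes, and of the liver plasma proteins only Ttr did. Beside 1.05% of all measured genes, 0 is again not particular to lists of this length.

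**Figure D5:**
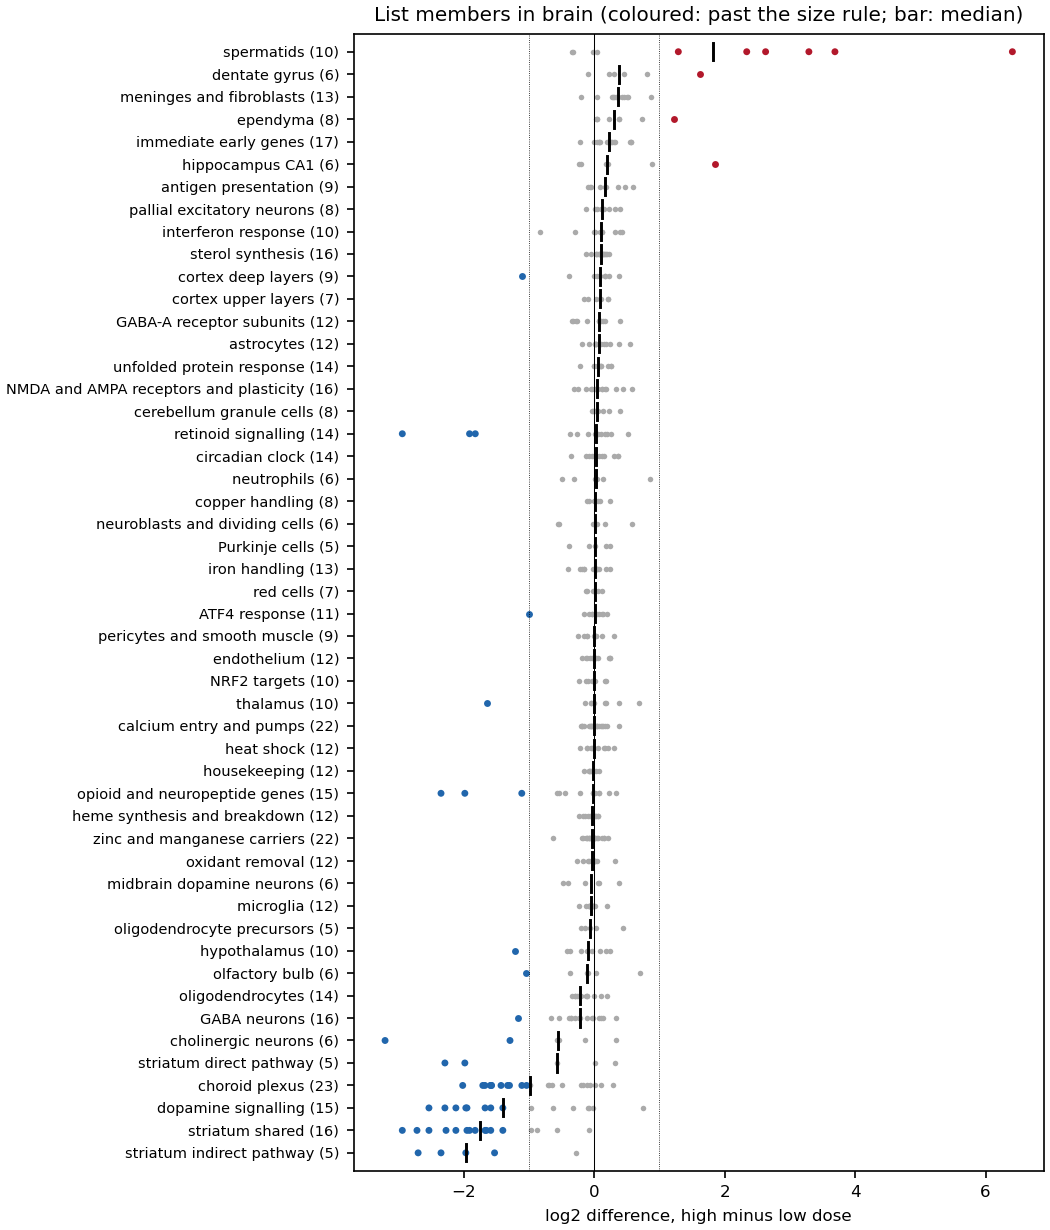
High minus low log2 difference of each measured gene in brain, 1 line for each list with at least 5 measured genes (number in brackets), ordered by the list median, which is the black bar. Coloured points passed the size rule, red for higher and blue for lower, and dotted lines mark a 2-fold step. Striatal, dopamine and choroid plexus lists lie to the left, the spermatid list to the right, and the metal and stress lists around 0.

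No gene of metal handling passed. Of 81 measured genes of metallothioneins, heme, iron, zinc, manganese, copper and calcium handling, 0 passed the size rule, and differences ran between -0.64 (the zinc importer Slc39a4) and 0.38 (the sodium and calcium exchanger Slc8a1). The metallothioneins Mt1 and Mt2, which bind zinc and toxic metals, differed by 0.24 and 0.30. Alad, the heme enzyme that lead inhibits, differed by -0.09 at the level of its transcript, and Hmox1, which breaks heme down, by -0.01. Of 46 measured genes in 4 stress lists 1 passed, Trib3, a kinase-like gene of the ATF4 response, which was lower at the high dose (-1.0). In the list of NMDA and AMPA receptors and plasticity 0 of 16 passed, with Bdnf at 0.58 and the NMDA receptor subunit Grin2a at 0.44. Beside the 1.05% of all measured genes that passed, counts this low in sets of this size do not set the metal, stress or plasticity genes apart.

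Among 433 measured genes of 4 transporter families 4 were higher and 6 lower (2.31% together, beside 1.05% of all genes). The lower ones were Slc10a4, Aqp1, Slc35d3, a member of the nucleotide sugar carrier family (-1.99), Slc4a5, Slc18a3 and Slc22a3, a low-affinity carrier of monoamines (-1.05). The higher ones were Slc9b1, the water channel Aqp8 (1.29), the sperm sodium pump subunit Atp1a4 (1.24) and Slc23a3 (1.01, with 0.10 at its other probe). With normexp background correction Slc4a5, Slc18a3, Slc22a3, Aqp8, Atp1a4 and Slc23a3 no longer passed, at -0.79, -0.87, -0.66, 0.77, 0.55 and 0.85. Of 37 measured ABC transporters 0 passed. Of 86 measured potassium channel genes 3 were lower, Kcnq1 (-1.78, with 0.22 at its other probe and -0.67 with normexp), Kcne2, and the beta subunit Kcnab1 (-1.02). Kcnab1 differed by -0.86 at its other probe and by -0.94 over the mean of its probes, which is short of the rule.

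The other genes among the 15 largest downward differences were of mixed roles. Ido1, which breaks tryptophan down, was at -2.54 at the high dose and 0.43 at the low dose (-2.97), and the serine protease inhibitor Serpina9 differed by -2.78, with -3.21 at its second probe. Six3, a forebrain transcription factor used by striatal neurons, differed by -2.71, and Six3os1, transcribed beside it on the other strand, was above background on the low-dose array alone, at least 6.70-fold lower at the high dose. Mhrt, a non-coding RNA from the cardiac myosin locus, differed by -2.59, the protease Prss56 by -2.31, the actin-binding Nexn by -2.26 and the transcription factor Dach1 by -2.19. Further bounds were found for the growth factor gene Gdnf, at least 6.56-fold lower at the high dose, for Cntnap3 (at least 6.19-fold), Myct1 (5.63), Sval1 (5.58) and Abcc12 (5.0). For all genes that passed as lower, the control level was nearer to the high dose in 139 of 171, and for those that passed as higher it was nearer to the low dose in 53 of 73.

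Where a gene had more than 1 measured probe, the others could be read beside the one reported. Of 39 lower genes with another measured probe, 36 had the same direction at all of them and 24 a step of at least 1 at all of them. Of 6 higher genes, all 6 had the same direction and 1 a step of at least 1. Kcnq1, Zdhhc22 and Fgf3 had a probe of the opposite sign, at 0.22, 0.15 and 0.05, and these last 2 were chosen after their values were seen.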

How the data were processed

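Gene expression was measured in male mouse brain, kidney and liver with Agilent 1-colour arrays, 1 array for each of 8 groups. Per the labels' protocols, total RNA was labelled with Cy3 from 50 ng. Per the submitters' processing notes, the scans were quantified in Agilent Feature Extraction 12.0.3.1. Intensities are the processed signals that this software wrote, background-subtracted, per the file headers. The authors' deposited value table gives the same signal intensity divided by 1 constant for each array, found by dividing the scanner values by it (816.1 for high-dose brain, 836.5 for low-dose brain); why these constants were chosen is not given in the sources used here.

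From the scanner files, the array's control features were dropped, as were features with a non-uniformity or outlier flag; spots of 1 probe were averaged on the log2 scale, and the 75th percentile of each array was subtracted. For a gene with several probes, the probe with the highest mean over the 8 arrays was reported, whether or not it was measured. A gene whose reported probe was not measured counted as not measured, even where another of its probes was. Except for bounds, statements that a gene was or was not above background refer to the reported probe. Gene names are those of the array design, updated through RefSeq accessions where these matched (32994 of 56605 probes), and symbols changed for 1535 probes. With 1 array a group there is no residual spread, so no p-value was computed, and the number of arrays limits the precision: the array error covers the spots of 1 array only. Genes named are the 15 largest differences each way among gene symbols that passed, transporters, ATPases, aquaporins and potassium channels that passed, the 6 largest bounds each way, and members of 62 gene lists. The members and lists were chosen with earlier results of these data known. Python 3.11.15, numpy 2.4.6, pandas 2.3.3 and limma 3.58.1 in R 4.3.3 (normexp and quantile alternatives) were used. The 12 alternatives are given at the end. Probe positions are those of the array annotation (mm9), and 99.2% of the probes compared lie on the strand that RefSeq gives their gene. A few genes of the lists are counted but not reported here by name.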

Additional observations from a re-analysis of the deposited data

Results flagged for a closer look

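Of the 19 genes past the size rule in both brain and kidney, 4 were lower at the high dose in brain and higher at the high dose in kidney. Arg2, a mitochondrial arginase, differed by -1.24 in brain and 1.5 in kidney (high minus low, log2). Trib3, the kinase-like gene of the ATF4 response, differed by -1.0 in brain and 1.59 in kidney. The predicted genes Gm26995 and Gm8884 differed by -1.15 and -1.37 in brain and by 1.32 and 1.11 in kidney. Each side is 1 array against 1 array, and the difference between the tissues was not tested.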

How the results depend on the processing

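No paired analysis was possible because each group has 1 array, and no array could be left out. The count of genes, 73 higher and 171 lower, and of probes, 112 higher and 249 lower, depended on the size step, the background correction and the filter for dim probes. With normexp background correction 20 genes were higher and 69 lower (28 and 99 probes), and with normexp and quantile normalization 18 and 71 (23 and 102 probes). A stricter filter on dim probes gave 19 genes higher and 95 lower (23 and 130 probes). Without a filter 156 genes and 228 probes were higher, and the lower counts, 225 genes and 332 probes, were within 1.5 times. A rule of at least 1.5 on the log2 scale gave 22 genes higher and 61 lower (33 and 91 probes). The other 7 alternatives gave 71 to 76 genes higher and 166 to 181 lower. Of these, 3 changed the signal scale: median scaling, quantile normalization and the deposited value table. A further 2 took the mean of a gene's measured probes or its brightest probe over the 2 brain arrays. The last 2 dropped the array error from the size rule or kept spots flagged as not uniform or outlying. No named gene changed sign under an alternative, nor did a list median larger than the array error. Over lists and alternatives, 522 of 536 medians moved by less than the median array error, and 321 of 390 values of named genes by less than their own. The median of the 16 shared striatal genes ran between -1.77 and -1.72 over the alternatives, that of the indirect pathway between -2.35 and -1.37, that of the direct pathway between -1.28, without a filter on dim probes, and -0.56, and that of the choroid plexus between -1.04 and -0.65. The spermatid median ran between 0.04, with the stricter filter that left 5 genes, and 1.81, while Prm1 ran between 5.22 and 6.41. Dim genes such as Slc10a4 (-3.24 to -1.81), Prss56 (-2.36 to -1.04), Kcnq1 (-1.83 to -0.67) and Nkx2-3 (0.77 to 1.72) moved more; the cause was not tested.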
